A study of Mus musculus with 12 samples.

Results

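Regenerating liver of Socs2-null mice was compared with regenerating liver of wildtype mice 36 h after the operation, across all genes measured. The 4 arrays used were every array labelled with that time, 2 of each genotype, out of 12 in the series. The other 8 covered both genotypes at 0 h and 24 h, and entered the statistical model as a shared estimate of the spread. Wildtype animals were adult C57BL/6 mice, and Socs2-null animals were adults of the same strain carrying a null mutation of Socs2. Which part of the gene is deleted is not given in the sources used here. All animals of the 36 h groups had undergone 2/3 hepatectomy, in which most of the liver is cut away, whereas the 0 h animals were age-matched and had no operation. The RNA on an array came from a pool of 3 mice. A group is therefore 2 pools, called pool 1 and pool 2 here after the replicate numbers of the labels. Neither the sex of the animals nor the hour of harvest is given in the sources used here, and no group had a sham operation.

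Socs2 encodes a suppressor of cytokine signalling that growth hormone induces through STAT5 and that in turn promotes removal of the growth hormone receptor, so its loss prolongs growth hormone signalling. In liver, growth hormone sets much of the difference between male and female gene expression and acts on lipid and glucose metabolism. After partial hepatectomy the remaining hepatocytes leave rest and enter the cell cycle, and DNA synthesis in mouse liver comes before a wave of mitosis. The design asks how loss of Socs2 alters this course.

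Levels are the authors' processed array intensities, a linear scale without a unit. Changes are log2 differences of Socs2-null minus wildtype, ± the standard error (SE), taken on intensity + 16, with p-values from limma adjusted by the Benjamini-Hochberg method over 17097 genes. A gene "rose" or "fell" here only if its adjusted p was under 0.05, and the remaining genes are described as higher or lower. "Not overlapping" means that both arrays of one genotype lay above both arrays of the other. The labels call the 2 arrays of a group biological replicates. With so few arrays, only differences large against the spread estimated over all groups could pass the adjustment.

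The RNA was that of liver by its markers. The albumin gene Alb read 15525 and 15659 in wildtype and 16452 and 15617 in Socs2-null liver, and the summed level of 10 hepatocyte markers stayed between 117270 and 120610 on all 4 arrays. Over all genes, array profiles correlated at r = 0.988 for the wildtype pair and also for the Socs2-null pair, while the 4 pairs of opposite genotype gave 0.982 to 0.99. These correlations are across genes, which are not independent replicates, and 2 of the 4 pairs of opposite genotype were closer than either pair of one genotype. Median intensities were 49.6 and 47.4 in wildtype and 48.3 and 45.9 in Socs2-null liver. Socs2 itself read 264 and 173 in wildtype and 28.7 and 23.2 in Socs2-null liver by its brightest probe set. Both Socs2-null values lay under the brightest tag control, a probe set with no target in mouse RNA. Taken against that control, the signal of this probe set was at least 6.31-fold lower, and the fitted log2 change was -2.46 ± 0.42 (adjusted p = 0.236). Other probe sets of Socs2 differed. One was lower, at 116 and 79.6 against 45.7 and 21.2 (-1.23). Another was not lower, at 61.4 and 63.7 against 75.8 and 65.7 (0.14), and a last one, under the tag control on all 4 arrays, stood at 0.23.

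Of the 17097 genes, 4 passed the threshold, 1 of them higher and 3 lower in Socs2-null liver (0.0234% of genes, 0.00585% higher and 0.0175% lower). Nudt7 and Cpt1a, both of fatty acid and coenzyme A metabolism, and the clock output gene Dbp fell, and the clock repressor gene Cry1 rose. At an unadjusted p under 0.05 stood 1101 genes (6.44%), 552 of them higher (3.23%) and 549 lower (3.21%). The median log2 change of all genes was -0.01, and the middle 90% of genes lay between -0.29 and 0.32. That the count was 4 depended on the arrays that entered the model. It was 1 when any single 0 h array or wildtype pool 2 at 36 h was left out, and 10 when either Socs2-null array at 24 h was. With pool 1 of the 36 h wildtype set aside it was 16, and for the Socs2-null pools at 36 h it was 2 with pool 1 set aside and 11 with pool 2 set aside.

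**Figure D1:**
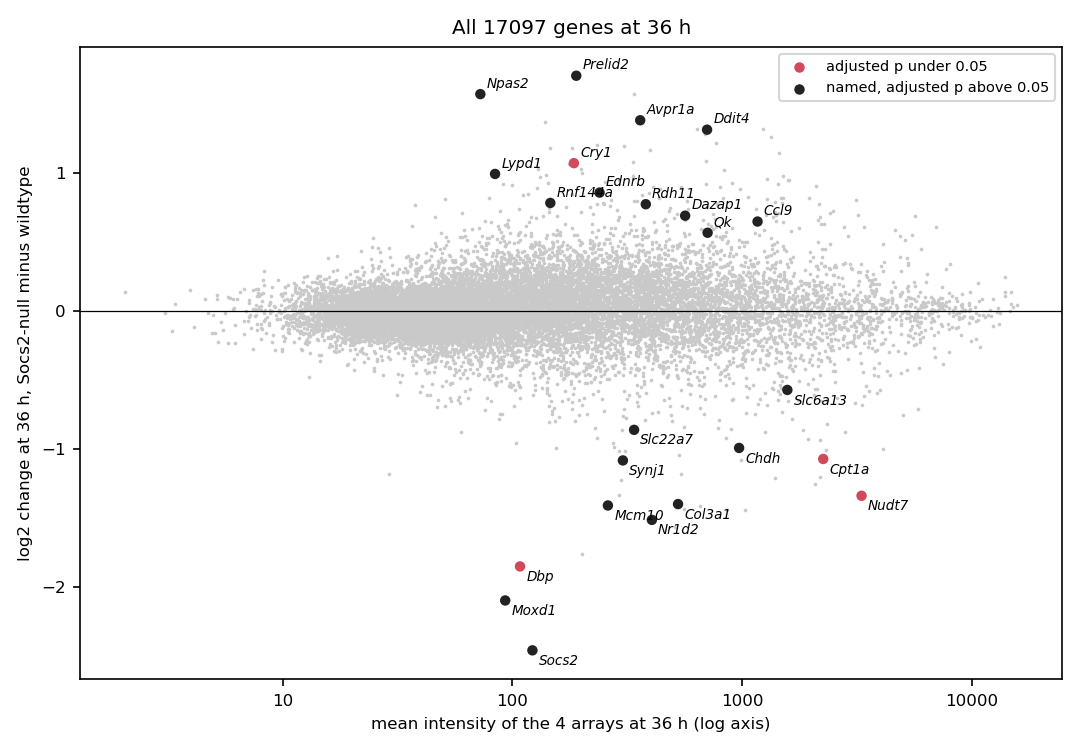
Log2 change at 36 h (Socs2-null minus wildtype, on intensity + 16) against the mean intensity of the 4 arrays at 36 h (log axis) for 17097 genes, each a grey point. Red points are the 4 genes with an adjusted p under 0.05 (Nudt7, Cpt1a, Dbp and Cry1), and black points are Socs2 and the other genes named by test statistic, which range from -2.46 for Socs2 to 1.70 for Prelid2.

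Nudt7 had the smallest adjusted p of the comparison. The gene encodes a peroxisomal hydrolase that cleaves coenzyme A and its acyl esters, and it is more strongly expressed in male than in female liver. It read 4528 and 4989 in wildtype and 1747 and 1994 in Socs2-null liver at 36 h. The genotypes were far apart against the spread of their pools, at 2.53-fold (log2 change -1.34 ± 0.10, 95% interval -1.56 to -1.12, adjusted p = 0.00042). A 2nd probe set read 4561 and 4649 against 1496 and 1812 (log2 change -1.47), and a dim 3rd one 125 and 111 against 74.9 and 93.6 (-0.42). When probe sets whose names carry _s_, _x_ or _a_ were left out, only the dim one remained and the call ended, with an adjusted p of 0.542.

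The difference in Nudt7 was larger at 36 h than in unoperated liver. At 0 h it read 7859 and 7959 in wildtype and 7438 and 8316 in Socs2-null liver, with overlapping arrays and a log2 change of -0.01. At 24 h it read 4631 and 4460 against 2939 and 2992, a log2 change of -0.61. The difference between the 36 h and 0 h genotype effects was -1.33 ± 0.14 (adjusted p = 0.0168), the one gene of 17097 (0.00585%) to pass that test, while 640 had an unadjusted p under 0.05 (3.74%). That call passed in 18 of 27 alternative settings, with 1 sign in all 27. It ended with centring on the array median (adjusted p = 0.0576), with plain eBayes (0.059), with the mean of all probe sets (0.324) and with _s_, _x_ and _a_ probe sets left out (0.999). It also ended with a single array left out: wildtype pool 1 (0.286), wildtype pool 2 (0.254) or Socs2-null pool 2 (0.224) at 0 h, and wildtype pool 2 (0.117) or Socs2-null pool 1 (0.0716) at 36 h. The difference between the 36 h and 24 h effects was -0.73 (adjusted p = 0.862), and no gene of 17097 passed there in limma (0% of genes), with 873 at an unadjusted p under 0.05 (5.11%). Within wildtype liver Nudt7 fell by 0.73 from 0 h to 36 h (adjusted p = 0.00108), and within Socs2-null liver by 2.07 (adjusted p = 1.26e-06), where 15.2% of all genes passed in wildtype (5.69% higher and 9.5% lower) and 20% in Socs2-null (9.84% higher and 10.1% lower). These 2 changes use the same arrays as the genotype contrasts and are no further support for them.

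Cpt1a encodes the outer membrane carnitine palmitoyltransferase, which controls entry of long-chain fatty acids into mitochondria. It read 2913 and 3218 in wildtype and 1366 and 1529 in Socs2-null liver at 36 h. Both Socs2-null pools lay at less than the level of either wildtype pool by a wide margin, 2.11-fold (log2 change -1.07 ± 0.13, 95% interval -1.35 to -0.80, adjusted p = 0.0236). The log2 change was 0.04 at 0 h and -0.05 at 24 h, when the arrays read 1660 and 1366 against 1383 and 1525 and overlapped. From 0 h to 36 h Cpt1a rose by 0.46 in wildtype liver (adjusted p = 0.0321) and fell by 0.66 in Socs2-null liver (adjusted p = 0.00413). The difference between the 36 h and 0 h genotype effects was -1.12 and did not pass the test (adjusted p = 0.404). The call at 36 h ended with wildtype pool 2 at 36 h left out (adjusted p = 0.102), with Socs2-null pool 1 at 36 h left out (0.196), without each 0 h array (0.068 to 0.0842) and in a model of the 4 arrays alone (0.252).

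**Figure D2:**
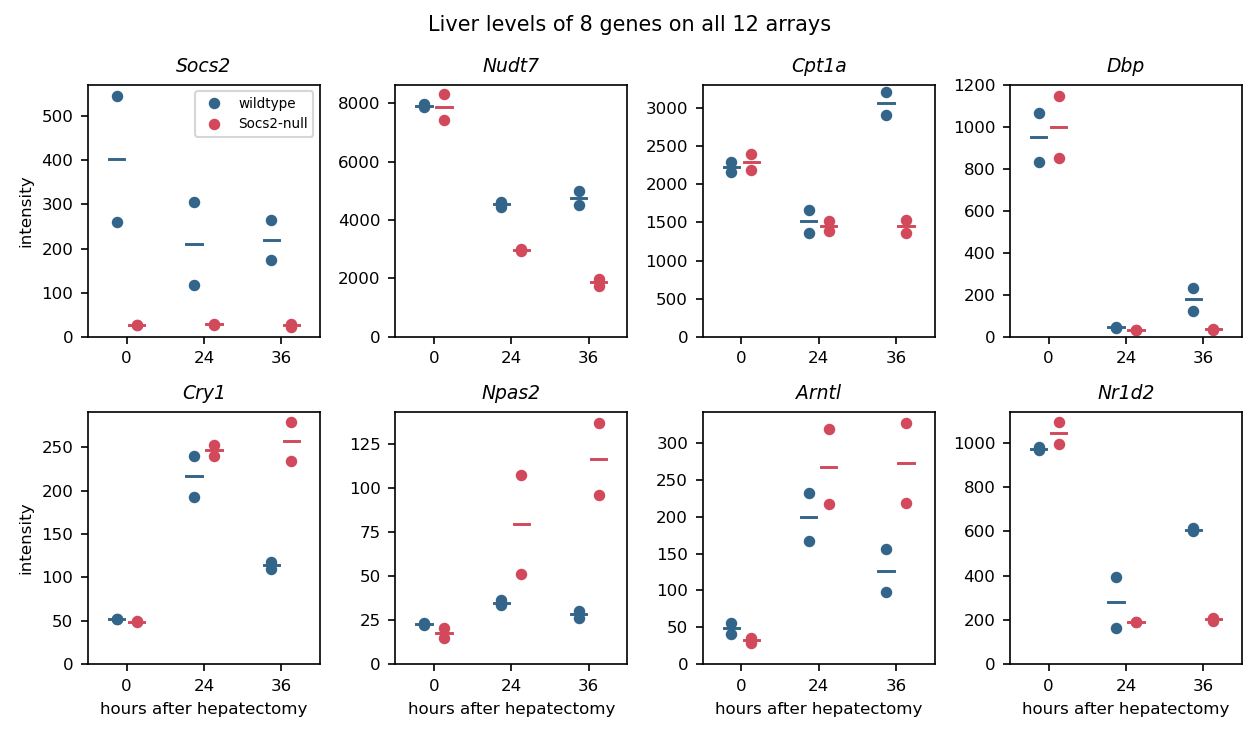
Intensity (linear axis from 0) of 8 genes against hours after hepatectomy, with each of the 2 arrays of a group as a point and their mean as a bar, wildtype in blue and Socs2-null in red. At 36 h Nudt7 (4758 ± 326 against 1870.4 ± 175), Cpt1a (3065 ± 216 against 1447 ± 116), Dbp and Nr1d2 lie lower in Socs2-null liver, and Cry1, Npas2 and Arntl lie higher, with no overlap of the genotypes (mean ± SD, n = 2 pools).

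Genes of the circadian clock made up the other 2 calls. The clock is a feedback loop in which the activators encoded by Arntl, Clock and Npas2 drive their own repressors, Cry and Per, and the output factors Dbp, Tef and Hlf, while the REV-ERB receptors encoded by Nr1d1 and Nr1d2 repress Arntl and Npas2. Dbp read 125 and 234 in wildtype and 33.2 and 39.0 in Socs2-null liver at 36 h. The wildtype pools differed widely from each other, yet both exceeded the Socs2-null pools, at a log2 change of -1.85 ± 0.24 (95% interval -2.38 to -1.33, adjusted p = 0.0333). Cry1 read 110 and 118 in wildtype and 234 and 279 in Socs2-null liver. Every Socs2-null value was above every wildtype value, by 2.1-fold (log2 change 1.07 ± 0.13, 95% interval 0.78 to 1.36, adjusted p = 0.027).

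Nudt7 passed in 26 of 27 alternative settings, Cry1 in 17 of 26 and Dbp in 12 of 27. Cry1 did not pass with any single 36 h array left out, at log2 changes from 0.95 to 1.19. Dbp did not pass when Socs2-null pool 1, Socs2-null pool 2 or wildtype pool 2 at 36 h was left out. Its log2 change then ran from -1.93 to -1.44. In a model of the 36 h arrays alone the adjusted p was 0.253 for both genes. The calls also ended with any 0 h array left out (0.068 to 0.0842 for Dbp and 0.0766 to 0.0868 for Cry1). Both directions were the same in all settings.

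Other arms of the clock lay apart as well, without passing the test. Npas2, a partner of the BMAL1 protein that Arntl encodes, read 30.4 and 26.2 in wildtype and 96.3 and 137 in Socs2-null liver, the wildtype values being under the brightest tag control, so that the level was at least 2.99-fold higher (log2 change 1.57 ± 0.24, adjusted p = 0.113). Arntl read 156 and 97.2 against 219 and 327 (1.03 ± 0.27, adjusted p = 0.465). For both genes the Socs2-null pools were higher without overlap, and a 2nd probe set was higher as well, at 0.31 for Npas2 and 0.30 for Arntl. Nr1d2 read 601 and 614 against 210.5 and 194.0, tight within each genotype (-1.52 ± 0.28, adjusted p = 0.236), with a 2nd probe set under the tag control at -0.22. Tef, whose protein binds the same DNA element as that of Dbp, read 316 and 422 against 169 and 192 (-0.96 ± 0.20, adjusted p = 0.294). A 2nd, dimmer probe set of Tef showed no such difference, at 43.6 and 45.8 against 43.3 and 46.4.

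The clock genes did not shift as a block. Of 7 activators and partners measured 4 were higher and 3 lower, with a median of 0.17. Of 10 repressors 6 were higher and 4 lower (median 0.18), and of 12 output factors and targets 6 were higher and 6 lower (median 0.05). These medians rested on single pools: with 1 array of the 36 h groups left out they ran from -0.14 to 0.26 for activators (the lowest with Socs2-null pool 2 left out), from 0.02 to 0.25 for repressors (the lowest with Socs2-null pool 1 left out) and from -0.29 to 0.29 for output genes (the lowest with Socs2-null pool 1 and the highest with wildtype pool 2 left out). Per1 at 0.35, Per2 at 0.18, Clock at 0.17 and Hlf at 0.13 overlapped between genotypes. Per3 was lower at 44.5 and 58.4 against 35.2 and 31.0 (-0.45 ± 0.17, with its 4 other probe sets between -0.19 and -0.01), and Coq10b, a coenzyme Q chaperone gene with a daily rhythm in liver, at 473 and 583 against 378 and 336 (-0.54 ± 0.14). Avpr1a, the vasopressin receptor gene placed on the output list, read 225 and 159 against 635 and 422 (1.38 ± 0.22, adjusted p = 0.113).

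Differences of these clock genes at 0 h did not pass the test and were smaller than at 36 h. Arntl read 56.3 and 40.5 in wildtype and 28.7 and 35.5 in Socs2-null liver at 0 h, lower without overlap and so opposite in sign to 36 h. Npas2 (under the tag control at 0 h) and Cry1 were also lower without overlap at 0 h and Nr1d2 higher, while Dbp and Tef overlapped. The 0 h changes were 0.07 for Dbp, -0.06 for Cry1, 0.10 for Nr1d2, 0.07 for Tef, -0.20 for Npas2 and -0.41 for Arntl. At 24 h they were -0.36 for Dbp, 0.18 for Cry1, -0.40 for Nr1d2, -0.51 for Tef, 0.84 for Npas2 and 0.39 for Arntl. None of these 6 passed the test of the difference between the 36 h and 0 h effects, the smallest adjusted p being 0.404 for Cry1. In wildtype liver Dbp fell by 2.35 and Cry1 rose by 0.94 from 0 h to 36 h (adjusted p = 0.000239 and 0.00129), and in Socs2-null liver Dbp fell by 4.27 and Cry1 rose by 2.07 (adjusted p = 3.9e-06 and 7.6e-06). The animals' hour of harvest is not given, and a difference in clock hour between pools of the genotypes cannot be told apart from the genotype.

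Upstream sequence was examined for the clock genes because the loop runs through known elements, the E-box bound by BMAL1 and CLOCK and the D-box bound by DBP and TEF. Shown are stretches of promoters with a match from Cry1, Tef, Coq10b and Per3, picked among genes that rose or were lower. Promoters of Per1, Ciart, Bhlhe41, Lonrf3, Tspan4 and Noct also held a match and are not shown. The 250 bases before each RefSeq transcript start (build GRCm38.p6) were searched on both strands for the E-box CACGTG and the D-box TTATGNAA, which do not overlap in any promoter shown. Matches are in capitals below, and each sequence runs 5′ to 3′ on the strand of the gene. Cry1 rose, while Tef, Coq10b and Per3 were lower, so both directions occur among promoters with these letters.
Cry1: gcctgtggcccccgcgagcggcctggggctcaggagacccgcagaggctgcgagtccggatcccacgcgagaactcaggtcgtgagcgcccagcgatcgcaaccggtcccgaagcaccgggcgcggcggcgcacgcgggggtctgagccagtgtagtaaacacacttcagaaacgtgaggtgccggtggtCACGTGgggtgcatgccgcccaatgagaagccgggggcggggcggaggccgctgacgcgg
Tef: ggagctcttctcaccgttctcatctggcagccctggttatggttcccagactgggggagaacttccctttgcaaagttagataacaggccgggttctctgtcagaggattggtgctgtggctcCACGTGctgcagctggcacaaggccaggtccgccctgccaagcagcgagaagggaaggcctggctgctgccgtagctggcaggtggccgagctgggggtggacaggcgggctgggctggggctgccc
Coq10b: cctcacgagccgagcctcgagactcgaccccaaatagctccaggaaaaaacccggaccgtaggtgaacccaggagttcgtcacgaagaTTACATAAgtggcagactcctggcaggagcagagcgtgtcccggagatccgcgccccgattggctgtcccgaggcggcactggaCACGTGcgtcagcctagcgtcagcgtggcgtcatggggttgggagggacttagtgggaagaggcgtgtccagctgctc
Per3: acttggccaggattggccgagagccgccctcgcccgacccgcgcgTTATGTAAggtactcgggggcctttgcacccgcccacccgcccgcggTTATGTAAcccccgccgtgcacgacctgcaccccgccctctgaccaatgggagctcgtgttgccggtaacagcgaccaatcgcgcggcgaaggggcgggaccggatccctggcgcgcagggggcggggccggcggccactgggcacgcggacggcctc

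The Cry1 stretch lies at chr10:85185055-85185304 on the minus strand, that of Tef, from the upstream one of its 2 starts in the table, at chr15:81802423-81802672 on the plus strand, that of Coq10b at chr1:55052520-55052769 on the plus strand and that of Per3 at chr4:151044666-151044915 on the minus strand. The Cry1 E-box begins 60 bases before the start, that of Tef 127 before and that of Coq10b 78 before, with a D-box 162 before the last. Per3 holds 2 D-boxes, 205 and 158 bases before its start. Over all measured genes 1260 of 17065 promoters (7.38%) held the E-box and 370 (2.17%) the D-box. Among clock repressors 4 of 9 promoters (44.4%) held the E-box and 2 (22.2%) the D-box, among output factors and targets 5 of 13 (38.5%) and 2 (15.4%), and among activators and partners 0 of 12 held either. Promoters were counted by transcript start, so genes with several starts, such as Csnk1e, Clock, Arntl and Tef, count more than once. Some of these windows overlap, and the shares are not shares of genes. The windows of Dbp, Npas2, Nr1d2, Arntl, Cpt1a and Nudt7 held neither set of letters, which says only that these letters are not in these windows.

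Of the 30 lists described, the one with the highest share of members whose arrays did not overlap was that of the unfolded protein and integrated stress response, the programme that raises chaperones and amino acid handling when the endoplasmic reticulum is loaded. All 25 members were measured, and 23 were higher in Socs2-null liver, where 47.6% of all genes were. In 21 of them both Socs2-null arrays lay above both wildtype arrays, against 15.2% of all genes, and in 0 members below both, against 17.6%. At an unadjusted p under 0.05 stood 10 members, all higher, where 3.23% of all genes were higher at that threshold. The median log2 change was 0.43. None passed after adjustment over all genes.

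Among the sensors and transcription factors of this response, Xbp1, the factor spliced by IRE1, read 3202 and 4185 in wildtype and 6057 and 5008 in Socs2-null liver (0.59 ± 0.19). Atf4, the factor at the centre of the integrated stress response, read 989 and 1078 against 1944 and 1418 (0.68 ± 0.23). In both the lowest Socs2-null pool stood clear of the highest wildtype pool. Among its targets, Chac1, which degrades glutathione, read 114 and 160 against 343 and 321 (1.20 ± 0.43), and Ddit3, which encodes CHOP, 112 and 135 against 236 and 201 (0.75 ± 0.51).

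Chaperones of the endoplasmic reticulum followed the same order. Hspa5, which encodes BiP, read 4525 and 5671 against 7300 and 6532 (0.45 ± 0.17). The disulfide isomerase gene Pdia4 read 1711 and 1745 against 2459 and 2919 (0.63 ± 0.21), and Hsp90b1 read 4528 and 4768 against 5736 and 6053 (0.34 ± 0.12). The neurotrophic factor gene Manf stood at 0.69 and the cochaperone gene Sdf2l1 at 0.88. Both members that were lower, Atf6 and Canx, stood at -0.13 with overlapping arrays.

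This list was not shifted at the other times. Its median was -0.09 at 24 h and -0.02 at 0 h, and Ddit3 and Atf4 were lower in Socs2-null liver at 24 h (-1.18 and -0.56). Between 24 h and 36 h the change became more positive in 21 of 25 members, where 52.5% of all genes did, and between 0 h and 36 h in 22, where 60.3% did. In the test of the difference between the 36 h and 24 h effects, 9 of 25 members had an unadjusted p under 0.05 in the higher direction and 1 in the lower, against 2.64% and 2.47% of all genes. Against 0 h these were 4 and 0, with 2.45% and 1.29% of all genes. Over the 4 settings that leave out 1 array of the 36 h groups, 22 to 25 members were higher and the median was 0.32 to 0.45.

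**Figure D3:**
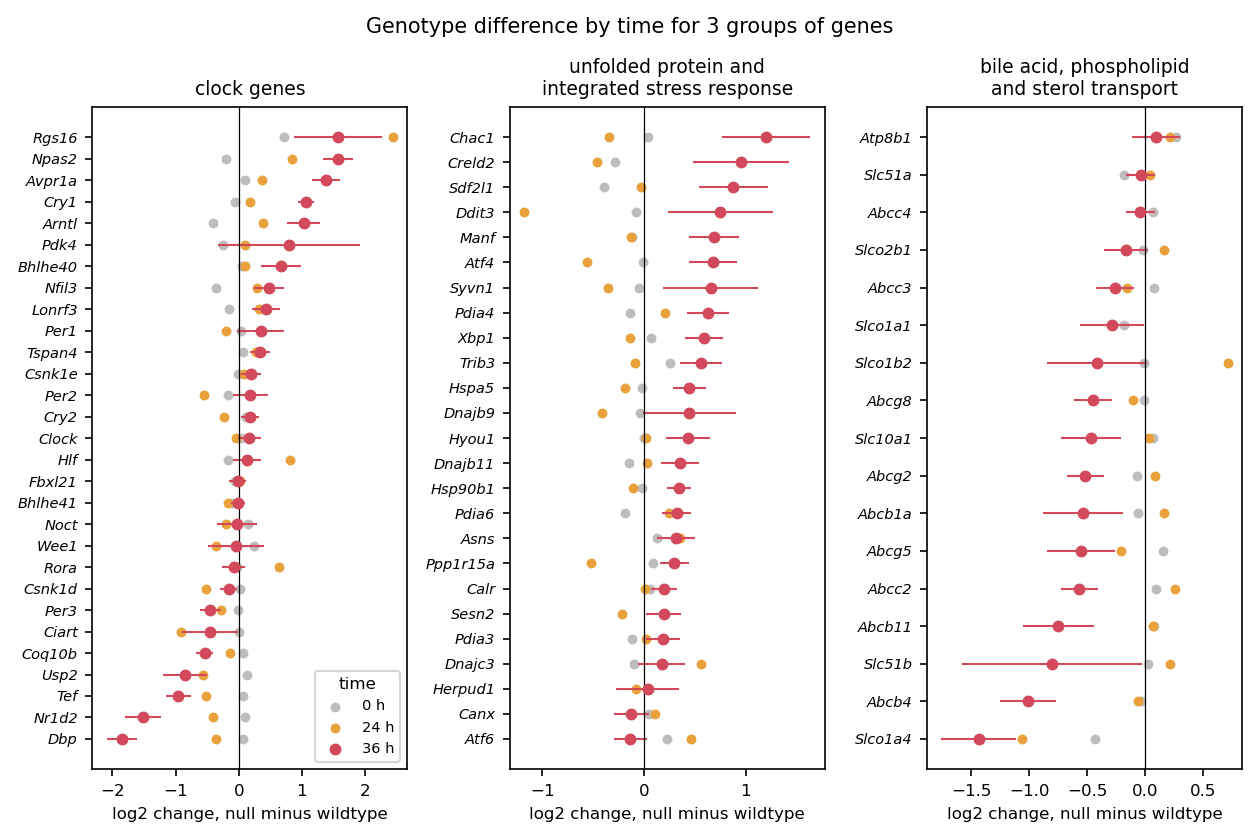
Log2 change of Socs2-null minus wildtype (on intensity + 16) for clock genes, genes of the unfolded protein and integrated stress response and genes of bile acid, phospholipid and sterol transport, at 0 h (grey), 24 h (orange) and 36 h (red, with a line of 1 SE to each side). At 36 h 23 of 25 stress response genes lie to the right of 0 and 16 of 17 transport genes to the left, while clock genes spread from -1.85 for Dbp to 1.57 for Rgs16.

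Genes that bring fatty acids into mitochondria and oxidize them were lower in Socs2-null liver along with Cpt1a. Of 18 measured members of the carnitine shuttle and mitochondrial oxidation list 17 were lower, where 52.3% of all genes were, and 13 did not overlap (17.6% of all genes). At an unadjusted p under 0.05 stood 8, all lower (3.21% of all genes), with a median of -0.29. Cpt2, the inner membrane partner of Cpt1a, read 1647 and 1678 against 1191 and 1386 (-0.37 ± 0.11), and the carrier gene Slc25a20 2302 and 2082 against 1463 and 1943 (-0.37 ± 0.13). Crat, carnitine acetyltransferase, read 396 and 224 against 115 and 195 (-0.92 ± 0.28), and the carnitine importer gene Slc22a5 851 and 521 against 441 and 374 (-0.69 ± 0.25). Wildtype levels were above Socs2-null levels in all 4 genes, by a small margin in Slc25a20 and Crat.

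The peroxisomal and coenzyme A list, to which Nudt7 belongs, had 19 of 21 members lower (52.3% of all genes) and a median of -0.21, with 9 lower and 1 higher without overlap (17.6% and 15.2% of all genes). The pantetheinase gene Vnn1, which releases the coenzyme A precursor pantothenate, read 519 and 1037 in wildtype and 178 and 313 in Socs2-null liver (-1.57 ± 0.40, adjusted p = 0.465). Hsd17b4, the peroxisomal multifunctional enzyme, read 2853 and 2808 against 1727 and 2528 (-0.44 ± 0.17). The exception was Pank3, a kinase of coenzyme A synthesis, at 469 and 518 against 573 and 703 (0.35 ± 0.15).

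Targets of the fatty acid receptor PPARA and genes of ketogenesis were mixed, with 10 of 16 lower and a median of -0.12. The lipid droplet gene Plin5 read 1537 and 1636 against 873 and 1105 (-0.68 ± 0.17). The receptor gene Ppara itself read 1231 and 1086 against 890 and 841 (-0.41 ± 0.15), and the fatty acid binding protein gene Fabp1 11689.5 and 11961 against 9979 and 9674 (-0.27 ± 0.09). Fgf21, a fasting hormone gene, overlapped widely at 129 and 732 against 916 and 386. Over settings without 1 array of the 36 h groups, 15 to 18 of 18 mitochondrial members were lower, and 9 to 12 of 16 on the PPARA list. The mitochondrial list stood at a median of 0.00 at 24 h and 0.02 at 0 h. All 18 members had a more negative change at 36 h than at 24 h, where 47.5% of all genes did. Of these, 3 had an unadjusted p under 0.05 (2.47% of all genes).

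Lipid synthesis lay on the other side. In the cholesterol synthesis and sterol regulation list, whose enzymes are driven by SREBP2 when cell sterol is short, 19 of 20 measured members were higher (47.6% of all genes) and 9 of these did not overlap (15.2% of all genes), with a median of 0.51. Fdft1, squalene synthase, read 996 and 778 in wildtype and 1595 and 2406 in Socs2-null liver (1.14 ± 0.27, adjusted p = 0.375). Dhcr7, the last reductase of the pathway, read 566 and 331 against 811 and 1082 (1.08 ± 0.27, adjusted p = 0.44). Both genes were higher in each Socs2-null pool, and the pools of one genotype also differed from each other by a large part of that gap. The median for this list was 0.79 with Socs2-null pool 1 at 36 h left out and 0.28 with pool 2 left out, against 0.28 at 24 h and 0.00 at 0 h.

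Fatty acid and triglyceride synthesis genes had 14 of 20 members higher (47.6% of all genes), a median of 0.17 and 5 members higher without overlap (15.2% of all genes). Fasn, fatty acid synthase, read 924 and 1006 against 2398 and 1399 (0.92 ± 0.22, adjusted p = 0.375). Acly, which supplies its acetyl-CoA, read 1171 and 952 against 2680 and 1569, and the desaturase gene Scd1 5079 and 5943 against 9631 and 7278. In all 3 Socs2-null pool 1 was the highest. The list's median was -0.03 with wildtype pool 2 at 36 h left out. Angptl8, an insulin-induced inhibitor of triglyceride clearance that belongs to the apolipoprotein and VLDL list, read 598 and 1006 against 1724 and 2044 (1.26 ± 0.35, adjusted p = 0.531).

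Promoters of the sterol genes were searched because SREBP2 acts on them together with NF-Y, which binds the CCAAT box. The letters ATTGG, or CCAAT on the other strand, were in 15 of 19 promoters of this list (78.9%), in 18 of 22 of the stress response list (81.8%), in 9 of 9 of the clock repressors and in 34.9% of all 17065. Among lists that leaned lower, they were in 23 of 31 for mitosis (74.2%) and 19 of 30 for conjugation enzymes (63.3%). They were in 6 of 22 for bile transport (27.3%). For ribosome biogenesis, which leaned higher, they were in 4 of 22 (18.2%), so the share did not follow direction. The sterol regulatory element known from the LDL receptor gene was in 0 of the 19 and in 9 of all promoters (0.0527%). Shown are Msmo1, a sterol oxidase gene at 2410 and 2124 against 3302 and 4752, and Mvk, mevalonate kinase, with their matches in capitals.
Msmo1: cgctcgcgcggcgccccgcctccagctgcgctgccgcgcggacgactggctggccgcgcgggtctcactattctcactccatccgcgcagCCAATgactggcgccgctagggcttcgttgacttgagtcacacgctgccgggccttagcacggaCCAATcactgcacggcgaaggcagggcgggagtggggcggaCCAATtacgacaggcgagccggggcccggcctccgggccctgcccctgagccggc
Mvk: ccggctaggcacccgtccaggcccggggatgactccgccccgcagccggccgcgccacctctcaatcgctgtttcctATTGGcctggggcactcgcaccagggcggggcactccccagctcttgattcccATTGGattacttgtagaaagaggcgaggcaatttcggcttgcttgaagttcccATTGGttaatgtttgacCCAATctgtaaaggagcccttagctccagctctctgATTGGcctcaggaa

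The Msmo1 stretch is chr8:64733579-64733828 on the minus strand and the Mvk stretch chr5:114444019-114444268 on the plus strand. Msmo1 has 3 matches and Mvk 5. A match here is a description of letters and not of binding.

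Export pumps of the hepatocyte were lower. Of 17 measured genes of bile acid, phospholipid and sterol transport 16 were lower (52.3% of all genes), 7 without overlap (17.6%) and 6 at an unadjusted p under 0.05 (3.21%), with a median of -0.47, the most negative of the 30 lists. The male-biased list was close at -0.46. It was the lower of these lists with wildtype pool 2 at 36 h left out (-0.45 against -0.22) and with Socs2-null pool 1 at 36 h left out (-0.45 against -0.33). Abcb4, which flips phosphatidylcholine into bile, read 2374 and 3891 in wildtype and 1272 and 1770 in Socs2-null liver (-1.01 ± 0.24, adjusted p = 0.391). The organic anion exporter gene Abcc2 read 2353 and 2623 against 1523 and 1830 (-0.57 ± 0.16), and Abcg2 1591 and 1640 against 984 and 1285 (-0.52 ± 0.16). Each of these 3 canalicular pumps was lower in both Socs2-null pools.

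The bile salt export pump gene Abcb11 read 1305 and 1512 against 604 and 1133 (-0.75 ± 0.31). On the blood side, the uptake carrier gene Slco1a4 read 1007 and 644 against 257 and 321 (-1.44 ± 0.32, adjusted p = 0.345), and Slc10a1, the main bile acid importer, 5126 and 3665 against 3471 and 2817 (-0.47 ± 0.26). Slco1a4 was lower at 24 h as well, at -1.06, whereas the list as a whole stood at 0.04 at 24 h and -0.01 at 0 h. In the test of the difference between 36 h and 24 h, 16 of 17 members were more negative at 36 h (47.5% of all genes). Of these, 3 had an unadjusted p under 0.05 (2.47% of all genes). When wildtype pool 2 at 36 h was left out, the count of lower members was 12 and the median -0.22.

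Bile acid synthesis genes were lower in 9 of 14 members, with a median of -0.18. Cyp7a1, the rate-limiting enzyme of bile acid synthesis, read 351 and 53.7 against 243 and 105, and its pools differed far more within than between genotypes. Cyp7b1, of the alternative route, read 4280 and 3838 against 2154 and 3548 (-0.55 ± 0.21), and Akr1d1 514 and 663 against 419 and 327 (-0.63 ± 0.24). The list's median was 0.01 with wildtype pool 1 at 36 h left out. Nr0b2, which encodes the bile acid sensor's repressor SHP, overlapped at 385 and 1051 against 173 and 513.

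Genes known to be higher in male than in female liver were lower in Socs2-null liver in 15 of 15 measured members (52.3% of all genes), 10 of them without overlap (17.6%) and 8 at an unadjusted p under 0.05 (3.21%), with a median of -0.46. Nudt7 is a member of this list, so its call is the same one as above. Moxd1, a monooxygenase-like gene, read 222 and 104 in wildtype and 23.6 and 23.1 in Socs2-null liver, at least 4.47-fold lower (-2.10 ± 0.38, adjusted p = 0.268). Both Socs2-null values were under the brightest tag control. Moxd1 was lower at 0 h as well, at -2.65. Keg1, an acyltransferase gene, read 706 and 726 against 330 and 468 (-0.84 ± 0.25), and Elovl3, a fatty acid elongase gene, 3589 and 2203 against 824 and 1660 (-1.25 ± 0.52).

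The male-biased list's median was -0.16 at 24 h and -0.02 at 0 h. Between 36 h and 0 h 14 of 15 members had a more negative change at 36 h, where 39.7% of all genes did. Of these, 2 had an unadjusted p under 0.05 (1.29% of all genes). Without 1 array of the 36 h groups 12 to 14 of 15 were lower. Genes higher in female liver did not show the opposite, with 9 of 16 higher, 7 lower and a median of 0.06, and 7 higher and 9 lower with either Socs2-null pool or wildtype pool 2 at 36 h left out. Examples were the prominin gene Prom1 at 0.53 and the flavin monooxygenase gene Fmo2 at -0.61. Of the 16 female-biased genes, 4 lay under the brightest tag control on all 4 arrays, against 0 of the 15 male-biased genes. The sex of the pooled animals is not given, so a different share of the sexes in the pools was not tested.

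The growth hormone axis itself gave no call. Igf1, the main growth hormone target of liver, read 6583 and 6231 in wildtype and 6543 and 7175 in Socs2-null liver and overlapped (0.10 ± 0.08). The receptor gene Ghr read 2984 and 2263 against 2056 and 2469 (-0.20 ± 0.18), and Stat5b stood at 0.02. None of these genes separated the genotypes. The feedback gene Cish read 198 and 86.9 against 206 and 125, and Socs3 324 and 331 against 335 and 194. Igfbp3, which carries IGF in blood, read 71.7 and 81.1 against 248 and 118 (1.02 ± 0.42, adjusted p = 0.743), and Igfbp2 1725 and 1497 against 3481 and 1853 (0.66 ± 0.27). Of 16 measured genes of the axis 9 were higher and 7 lower, with a median of 0.06 that was -0.09 with wildtype pool 2 at 36 h left out.

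Other components of cytokine signalling leaned higher, with 13 of 17 members of the SOCS, JAK, STAT and gp130 list above 0 (47.6% of all genes), 7 without overlap (15.2%) and a median of 0.13. Il6st, which encodes the shared receptor subunit gp130, read 648 and 661 against 854 and 824 (0.35 ± 0.11). Jak1 read 806 and 787 against 988 and 939 (0.27 ± 0.11). Both were tight within genotypes, and the differences were small.

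Cell cycle genes did not separate the genotypes as groups. Cyclins and cyclin-dependent kinases had 9 members higher and 14 lower of 23, none at an unadjusted p under 0.05 (6.44% of all genes). With wildtype pool 2 at 36 h left out, 16 were higher and 7 lower. Ccnd1, the cyclin of cell cycle entry, read 548 and 2185 in wildtype and 1040 and 1348 in Socs2-null liver, the Socs2-null pools lying between the wildtype pools. DNA replication genes had 27 of 36 higher with a median of 0.14, yet 12 higher with wildtype pool 1 at 36 h left out and 32 with wildtype pool 2 at 36 h left out. Pcna, the polymerase clamp, read 685 and 1037 against 1148 and 1195 (0.47 ± 0.17). Mcm10, which acts at replication origins, was lower at 434 and 337 against 116 and 154 (-1.41 ± 0.27, adjusted p = 0.274), but its 2 other probe sets, under the tag control on all 4 arrays, gave -0.19 and 0.11. Its bright probe set was brightest in unoperated liver, at 1531 and 1466 in wildtype and 1590 and 1287 in Socs2-null liver at 0 h.

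Genes of mitosis were lower in 28 of 33 members (52.3% of all genes), with 14 lower without overlap (17.6%) and a median of -0.16. With 1 array of the 36 h groups left out 20 to 31 were lower, the fewest with wildtype pool 2 left out, and the median was -0.27 to -0.03. Most were dim, and 9 of the 33 lay under the brightest tag control on all 4 arrays. The kinase gene Plk1 read 54.7 and 51.2 against 44.9 and 40.8 (-0.23 ± 0.09), and the proliferation marker gene Mki67 52.4 and 74.6 against 39.0 and 47.4 (-0.41 ± 0.19). Cdc20 read 48.2 and 78.4 against 39.9 and 45.3 (-0.41 ± 0.17). Only 3 members remained without the dimmest 50% of genes, 2 higher and 1 lower, too few to describe the list. Cenpf, a kinetochore gene, was higher at 80.1 and 78.6 against 107 and 90.7.

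Inhibitors of the cycle and p53 targets were split at 13 higher and 11 lower of 24. Cdkn1a, which encodes p21, read 861 and 1338 in wildtype and 2375 and 1833 in Socs2-null liver (0.95 ± 0.34, adjusted p = 0.656). Cdkn1c, which encodes p57, read 56.7 and 55.3 against 41.4 and 42.7 (-0.31 ± 0.13). Ddit4, a stress-induced inhibitor of mTOR, read 400 and 380 against 1259 and 778 (1.31 ± 0.22, adjusted p = 0.126). Wildtype pools of Ddit4 were close to each other and both below the Socs2-null pools.

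Immediate-early and ribosome biogenesis genes were higher but leaned on single pools. Of 19 immediate-early genes 15 were higher, with a median of 0.16 that was -0.05 with Socs2-null pool 1 at 36 h left out. Egr1 read 570 and 832 against 2108 and 1428, with a wide error (1.31 ± 0.81), and Klf10 249 and 300 against 593 and 433 (0.85 ± 0.25). Of 24 ribosome biogenesis genes 22 were higher (47.6% of all genes), 6 without overlap (15.2%), with a median of 0.41 that was 0.09 with Socs2-null pool 1 at 36 h left out and 0.62 with Socs2-null pool 2 at 36 h left out. Centred on each gene's mean over the 4 arrays, this list stood at -0.36 and 0.01 in wildtype and at 0.43 and -0.10 in Socs2-null liver, so the genotypes overlapped. The nucleolar gene Utp20 read 194 and 227 against 383 and 262 (0.56 ± 0.20).

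**Figure D4:**
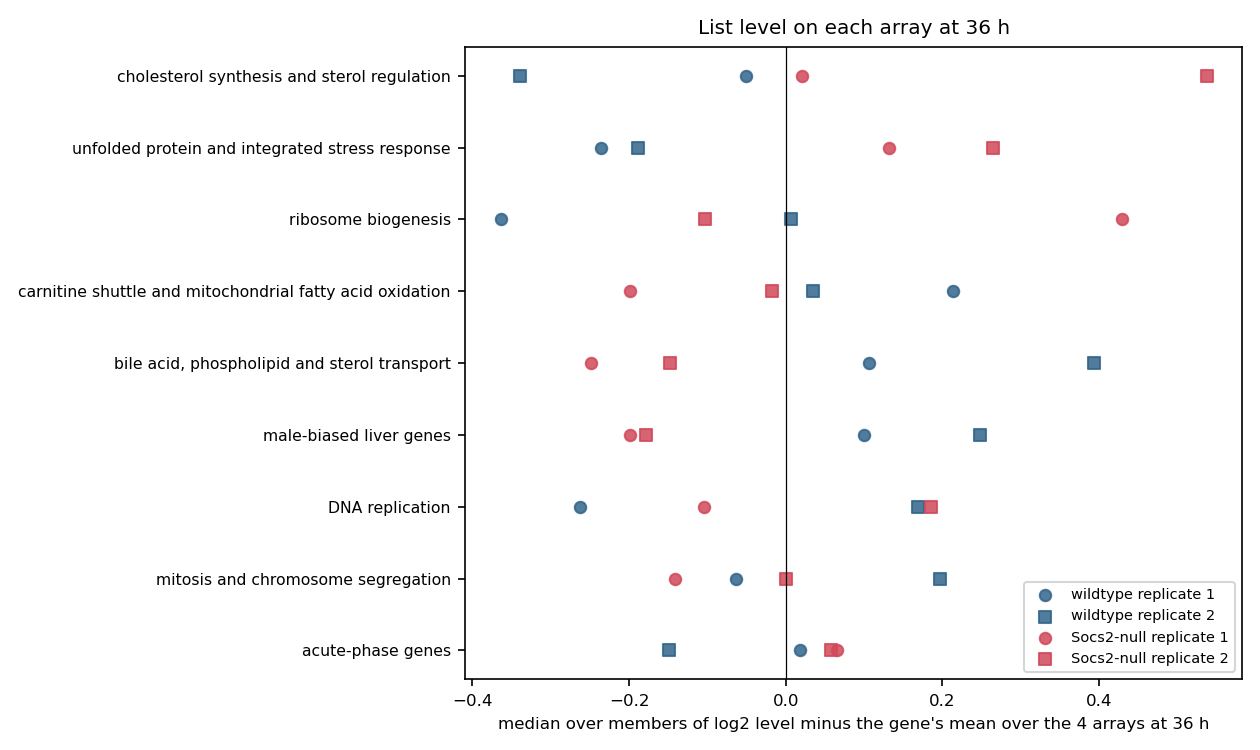
Median over the members of 9 gene lists of the log2 level on each of the 4 arrays at 36 h, each gene centred on its mean over these arrays, with wildtype in blue, Socs2-null in red, replicate 1 as circles and replicate 2 as squares. Both genotypes stand apart for the stress response (-0.24 and -0.19 against 0.13 and 0.26), bile transport and male-biased lists. They also stand apart, by smaller gaps, for cholesterol synthesis (-0.05 and -0.34 against 0.02 and 0.54), mitochondrial oxidation and acute-phase genes. Ribosome biogenesis, DNA replication and mitosis overlap.

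Amino acid, drug and glucose metabolism gave mixed lists. Urea cycle and amino acid genes were lower in 19 of 25 members (52.3% of all genes), 8 without overlap (17.6%), with a median of -0.09 that ranged from -0.27 with wildtype pool 2 at 36 h left out to -0.04 with wildtype pool 1 at 36 h left out. The ornithine carrier gene Slc25a15 read 4829 and 3411 against 2208 and 3136, and Tdo2, which begins tryptophan breakdown, 9022 and 8008 against 6048 and 7002. Conjugation enzymes were lower in 23 of 28 members (median -0.14), with Ugt2b5 at -0.41 and Ephx1, an epoxide hydrolase gene, at -0.68. Cytochrome P450 and xenobiotic regulators were lower in 16 of 23 (median -0.07), but in 10 of 23 (median 0.08) with wildtype pool 1 at 36 h left out. Cyp3a25 read 4742 and 6209 against 2530 and 2887 (adjusted p = 0.319), and the receptor gene Nr1i2, which controls Cyp3a genes, 638 and 751 against 467 and 482 (-0.53 ± 0.14).

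Of 18 gluconeogenesis and glycogen genes 7 were higher and 11 lower, with a median of -0.03, and 12 were higher and 6 lower (median 0.11) with Socs2-null pool 2 at 36 h left out. Regulatory subunits that draw phosphatase 1 to glycogen were the exception in size. Ppp1r3b read 1048 and 973 in wildtype and 1976 and 2019 in Socs2-null liver (0.97 ± 0.25, adjusted p = 0.465), and Ppp1r3c 250 and 486 against 774 and 1028 (1.31 ± 0.53, adjusted p = 0.743). Neither gene's pools overlapped between genotypes.

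Plasma protein and interferon genes leaned higher. Of 28 acute-phase genes 20 were higher (47.6% of all genes), 11 without overlap (15.2%). The median was 0.11, and 0.02 with wildtype pool 2 at 36 h left out, beside 0.13 at 0 h and 0.11 at 24 h. The protease inhibitor gene Serpina3n read 5807 and 3116 against 6950 and 6780 (0.69 ± 0.21), and Steap4, a metalloreductase gene, 1852 and 1817 against 2701 and 3340 (0.71 ± 0.21). Of 26 interferon and antigen presentation genes 19 were higher (median 0.14). Usp18, which removes the ubiquitin-like ISG15, read 167 and 171 against 346 and 294 (0.86 ± 0.24), and the GTPase gene Igtp 433 and 423 against 634 and 826 (0.74 ± 0.21). Apolipoprotein and VLDL genes were even in direction, at 11 higher and 11 lower of 22, with 2 higher and 6 lower without overlap (15.2% and 17.6% of all genes). The changes ran from -0.82 ± 0.24 for Apob, at 3594 and 2455 against 1551 and 1815, to 1.26 for Angptl8. Hepatocyte transcription factors had 9 higher and 13 lower of 22, and hepatocyte mitogens and receptors 13 higher and 10 lower of 23. With Socs2-null pool 1 at 36 h left out these turned to 14 higher and 8 lower, and to 8 higher and 15 lower.

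**Figure D5:**
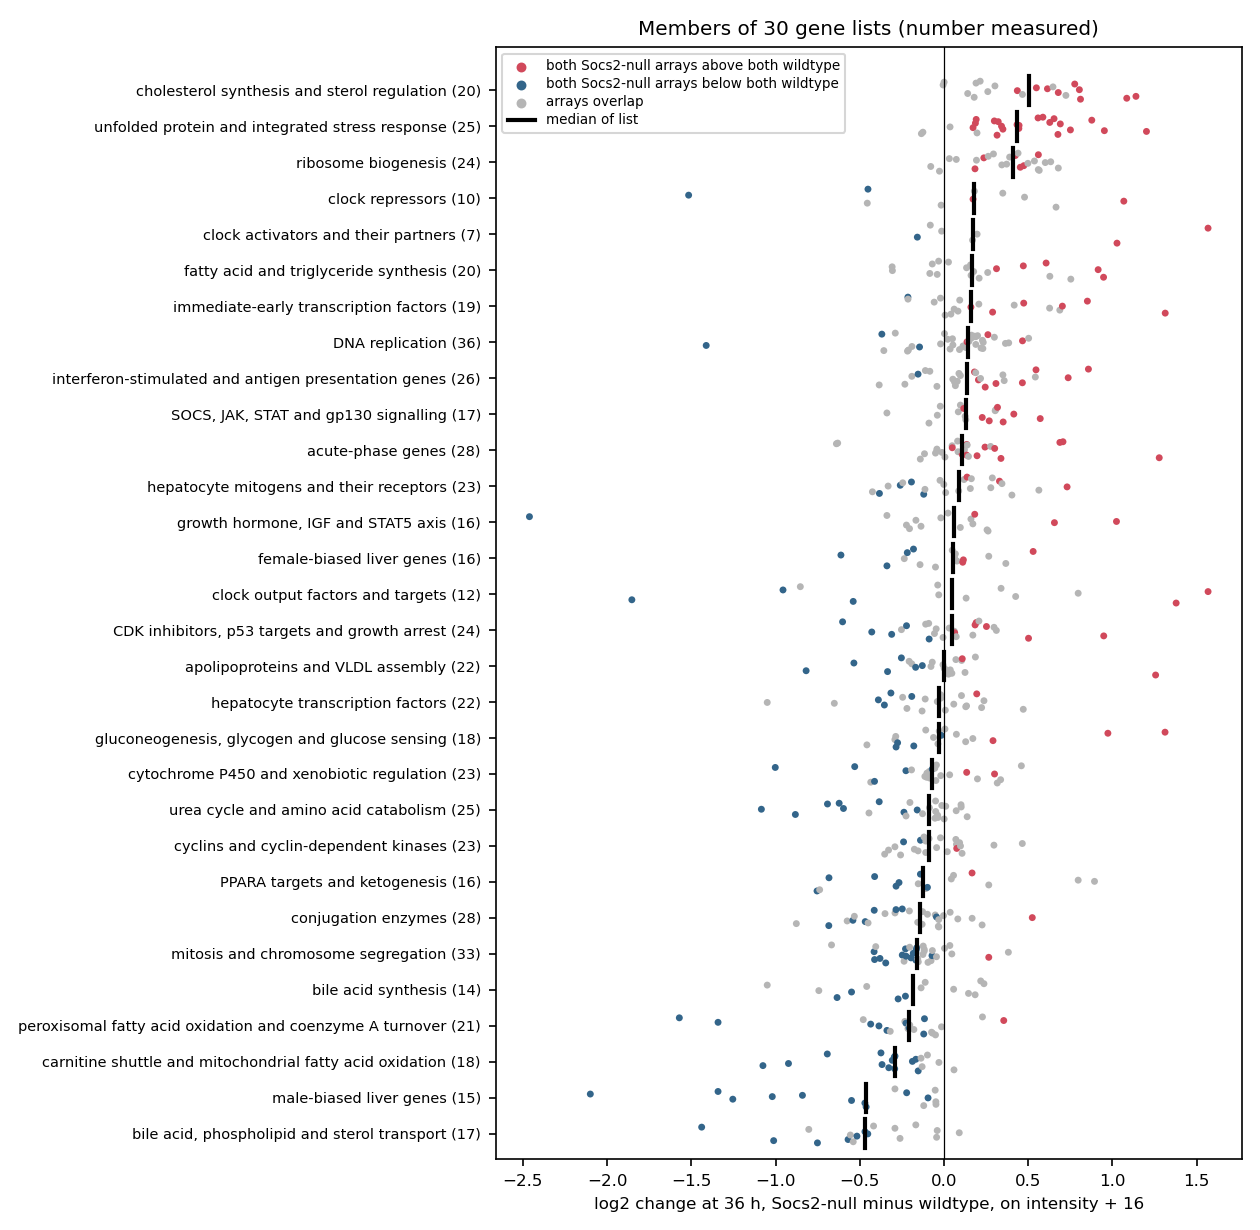
Log2 change at 36 h (Socs2-null minus wildtype, on intensity + 16) of every measured member of 30 gene lists, 1 point per gene, ordered by the list median (black bar). Red and blue points are genes whose arrays do not overlap, and grey points overlap. Medians run from -0.47 for bile acid, phospholipid and sterol transport to 0.51 for cholesterol synthesis, against -0.01 for all genes.

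Summed markers of other cell types of liver overlapped between genotypes or differed between pools of one genotype. Kupffer cell and macrophage markers summed to 8471 and 8267 in wildtype and 8116 and 10673 in Socs2-null liver, with 10 of 13 higher, and sinusoidal endothelial markers to 3903 and 3518 against 3922 and 4192, with 9 of 13 higher. With Socs2-null pool 2 left out, 5 of 13 macrophage and 6 of 13 endothelial markers were higher. Stellate cell and fibroblast markers summed to 5169 and 4072 against 4780 and 4499, with 8 of 14 higher and a median of 0.03. Of the 14, 5 were lower without overlap (17.6% of all genes), namely Col3a1, Col1a1, Acta2, Lum and Timp1. Rgs5 was higher without overlap (15.2% of all genes). At an unadjusted p under 0.05, 4 of the 14 were lower (3.21% of all genes). Col3a1, a collagen gene with a high test statistic, read 712 and 822 against 225 and 347 (-1.40 ± 0.24, adjusted p = 0.149), with a 2nd probe set at -0.45. The defining marker Des read 104 and 82.4 against 95.9 and 91.4. In bulk liver, fewer cells of a type and less RNA per cell cannot be told apart.

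Sums of the remaining markers ran from 442 to 483 for T and NK cells, 159 to 210.1 for B cells, 704 to 790 for neutrophils and monocytes, 502 to 580 for cholangiocytes, 5075 to 6858 for erythroid cells, 222 to 247 for adipocytes and mesothelium and 606 to 748 for pancreas. The genotypes overlapped in these sums except for neutrophils and monocytes, at 704 and 709 against 790 and 711, and erythroid cells, at 5450 and 6858 against 5409 and 5075. Of the lists' members 6 of 11 for T and NK cells and 5 of 7 for B cells were under the tag control on all 4 arrays. The part of any cell type in the differences above was not tested.

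Some other genes with high test statistics belonged to no list. Lower in Socs2-null liver were Chdh, choline dehydrogenase, at 1222 and 1370 against 568 and 724 (-0.99 ± 0.17, adjusted p = 0.126), and the transporter genes Slc22a7 at 501 and 385 against 244 and 225 and Slc6a13 at 1839 and 1935 against 1194 and 1333. Synj1, a phosphoinositide phosphatase gene, was lower by its brightest probe set, at 405 and 429 against 171 and 206, while its 3 other probe sets stood between -0.05 and 0.04. Higher were the endothelin receptor gene Ednrb at 184 and 149 against 315 and 311 (0.85 ± 0.13, adjusted p = 0.113, with a 2nd probe set at 0.25), the ubiquitin ligase gene Rnf144a at 112 and 95.3 against 176 and 202, and the chemokine gene Ccl9 at 1050 and 777 against 1374 and 1471.

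Probe sets of single genes did not always speak with one voice on this side either. Prelid2 was at 101 and 56.5 against 200 and 401 by its brightest probe set (1.70 ± 0.36, the highest change of all genes), and at -0.03 by the other. Qk, an RNA-binding protein gene, was at 0.56 by its brightest probe set and between -0.35 and 0.34 by the 6 others. Both probe sets of Avpr1a (1.38 and 1.35), of Ccl9 (0.64 and 0.70) and of the retinol dehydrogenase gene Rdh11 (0.77 and 0.69) lay on the same side. Dazap1, an RNA-binding protein gene, and Lypd1 have 1 probe set each and stood at 0.69 and 0.99.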

How the data were processed

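Liver RNA of 12 pools was hybridized to a mouse array of 45141 probe sets, from 10 micrograms of total RNA each, per the labels. The deposited intensities are linear values that the authors had processed. How background was corrected and values summarized and normalized is not given in the sources used here, and no scaling was added. The number of arrays limits the precision of every value. P-values set each difference against a spread between pools estimated over all groups, and not against the spread between single animals.

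Probe sets were named from GEO's platform annotation, 28898 of them with a single gene. Where a gene had several, the one with the highest mean log2(intensity + 16) over all arrays stood for it, which left 17097 genes. A group-means model of all 12 arrays, with 6 residual degrees of freedom, was fitted with limma 3.58.1 (trend and robust empirical Bayes, statmod 1.5.0, R 4.3.3), two-sided, with a Benjamini-Hochberg threshold of 0.05. Contrasts compared the genotypes at each time, the differences between the 36 h effect and the 0 h and 24 h effects, and 36 h against 0 h within each genotype. A run of the model on simulated data drew noise independently for each gene. It cannot show the effect of deviations that the genes of a pool share. Values under the brightest of 17 tag controls on both arrays of a group give folds as bounds, with that control in their place. Python 3.11.15 with matplotlib 3.10.9 drew the figures.

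The comparison, 30 pathway lists and 11 marker lists were chosen with earlier results of these data known, so counts over lists are descriptions and no list was tested. Genes named were Socs2, those past the threshold, the highest and lowest test statistics among genes without overlap and at a mean of at least 100 in either group (up to 12 each way, from which some were left out for length), up to 4 members of each list with the smallest p and 1 marker for each cell type. Other list members were chosen after their values were seen. Of 144 genes named by the rule 117 had a RefSeq promoter. Alternatives covered normalization, pseudocount, filter, choice of probe set, model and each array left out. Whether equal replicate numbers pair the pools was checked by the correlation of their deviations.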

Additional observations from a re-analysis of the deposited data

Results flagged for a closer look

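Nudt7 differed between times in its genotype effect. The difference between the 36 h and 0 h effects was -1.333 on the log2 scale (SE 0.14, adjusted p = 0.0168 in limma), with the 36 h arrays at 4528 and 4989 in wildtype and 1747 and 1994 in Socs2-null liver, and overlapping arrays at 0 h. Both Socs2-null pools were lower at 36 h and at 24 h. The call passed in 18 of 27 alternative settings and ended in the others, among them centring on the array median, the mean of all probe sets and 5 of the 12 settings that leave out 1 array.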

How the results depend on the processing

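Directions of Nudt7, Cpt1a, Dbp and Cry1 at 36 h were the same under all alternatives run. Of the counts of genes past the threshold, that at 36 h (4) was 2 without probe sets whose names carry _s_, _x_ or _a_, 10 with all probe sets tested, and 13 with the hybridization control level as a covariate. Leaving out 1 array gave 1 to 16. The count for the difference between 36 h and 0 h (1) was 0 with centring on the array median, with the mean of all probe sets, without _s_, _x_ and _a_ probe sets and with plain eBayes, 2 with all probe sets and in a model of the arrays compared, and 0 to 13 with 1 array left out (the highest with Socs2-null pool 1 at 0 h left out). For 36 h against 24 h it was 0, or 0 to 1 with 1 array left out (the highest with Socs2-null pool 2 at 36 h left out). Deviations by replicate number correlated from -0.50 to 0.35 over the 15 pairs of groups, with 3 over 0.1 and 3 under -0.1. Equal replicate numbers thus showed no pairing common to all groups, and a batch shared by some groups was not tested. With the replicate number as a block 7 genes passed at 36 h, the 4 above among them, and with the pairing of the 36 h arrays crossed, an alternative chosen after seeing the data, 6. The choice of the probe set with the highest linear mean, also chosen after seeing the data, gave 4.

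Signs turned, none of them called, for Csnk1d with the mean of all probe sets (adjusted p = 0.971), for Csnk1d (0.974), Qk (0.927) and E2f1 (0.993) without _s_, _x_ and _a_ probe sets, for Ccnb2 (0.924), Ccna2 (0.9999) and Cdc6 (0.934) with wildtype pool 2 at 36 h left out and for Csnk1e, Slc27a5, Hgfac and Fst (0.99993 each) with Socs2-null pool 1 at 36 h left out. With 1 array left out in turn, adjusted p ran from 0.209 to 0.924 for Ccnb2, 0.743 to 0.9999 for Ccna2, 0.132 to 0.934 for Cdc6, 0.426 to 0.99997 for Csnk1e, 0.252 to 0.99997 for Slc27a5 and for Hgfac, and 0.0987 to 0.99997 for Fst. Medians of the stress response, cholesterol, mitochondrial oxidation, bile transport and male-biased lists had 1 sign in all 27 alternatives, at 0.32 to 0.47, 0.28 to 0.79, -0.34 to -0.16, -0.57 to -0.22 and -0.48 to -0.27. No scaling moved the median of all genes by over 0.1. Array signals near the tag controls, as for 3353 genes on all 36 h arrays, limit what can be said of dim genes.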
